A study of Mus musculus with 20 samples.

Results

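Scavenger receptors are the surface proteins with which phagocytes bind and take in modified lipoproteins, microbes, dying cells and mineral particles. Transcripts of 8 of them, Msr1, Marco, Colec12, Cd36, Scarb1, Olr1, Mrc1 and Stab1, were followed in mouse diaphragm 12 weeks after fibres were placed in the pleural cavity. Olr1, Marco, Msr1 and Mrc1 were higher with long fibres of both materials, asbestos and carbon nanotubes, on every array than on every vehicle array. With short fibres of the same materials, the means of Marco, Msr1 and Mrc1 lay within 2-fold of vehicle. Their log2 changes ran from -0.87 (Marco, short nanotubes) to 0.80 (Msr1, short asbestos). Olr1 was not well above background on any vehicle or short nanotube array, and was so on 1 of 4 short asbestos arrays. Cd36 and Scarb1, the lipid uptake receptors of the set, differed less between groups than between mice of one group.

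The 8 genes were found on the array by their gene names, and they account for 10 of 55681 probes and 8 of 34797 gene names. The set was selected on its measured levels in these same groups, so the members' levels and changes are given here as a description, with no p-value and no test. The mice were female C57Bl/6, aged 8 weeks at injection, with 4 mice in each of 5 groups. All of them were injected once into the pleural space in 0.5% bovine serum albumin in saline, and the control group was given 100 µL of that vehicle alone. LFA mice were given 25 µg of amosite asbestos enriched for long fibres, of which 50.3% were over 15 µm. SFA mice were given 25 µg of the same amosite shortened by milling, of which 3.1% were 5 µm or more. NTL and NTS mice were given 5 µg of long and short carbon nanotubes. The diaphragm was frozen at 12 weeks, so the RNA is that of muscle, pleural lining and any cells gathered there. Doses differ between asbestos and nanotubes, so length was compared within each material. The long nanotubes were made in an academic laboratory and the short ones were bought, so their length and source cannot be told apart.

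Scavenger receptors are grouped into classes by structure and not by descent. Class A members such as MSR1 and MARCO are trimers with a collagenous stalk and bind unopsonised particles on macrophages. Class B members such as CD36 cross the membrane near both ends and move fatty acids or cholesterol, and CD36 is also abundant in muscle, fat and capillary endothelium. Class E members carry C-type lectin folds, and the class H receptor STAB1 marks sinusoidal and lymphatic endothelium and some tissue macrophages.

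Promoter sequence for 5 of the 8 members was at hand from RefSeq (GRCm38.p6). The 250 bases before the annotated start are shown for 3 members that were higher together with long fibres, and for Cd36, which was not. Capitals mark matches on either strand to GAGGAA, the core of sites bound by PU.1, a transcription factor of the myeloid lineage, or to TGANTCA, the site of the AP-1 factors. The searched motifs do not overlap each other in these windows.
Olr1, chr6:129507166-129507415, minus strand: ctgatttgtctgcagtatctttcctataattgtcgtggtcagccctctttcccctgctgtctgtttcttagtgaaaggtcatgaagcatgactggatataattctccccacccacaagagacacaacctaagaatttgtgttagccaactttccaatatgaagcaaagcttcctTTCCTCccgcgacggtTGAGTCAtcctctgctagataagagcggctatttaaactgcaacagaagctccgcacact
Marco, chr1:120505025-120505274, minus strand: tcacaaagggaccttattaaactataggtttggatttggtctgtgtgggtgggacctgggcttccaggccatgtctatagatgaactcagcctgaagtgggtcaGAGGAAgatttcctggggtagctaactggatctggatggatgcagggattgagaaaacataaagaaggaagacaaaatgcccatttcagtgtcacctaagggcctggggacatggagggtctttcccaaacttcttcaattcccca
Mrc1, chr2:14229164-14229413, plus strand: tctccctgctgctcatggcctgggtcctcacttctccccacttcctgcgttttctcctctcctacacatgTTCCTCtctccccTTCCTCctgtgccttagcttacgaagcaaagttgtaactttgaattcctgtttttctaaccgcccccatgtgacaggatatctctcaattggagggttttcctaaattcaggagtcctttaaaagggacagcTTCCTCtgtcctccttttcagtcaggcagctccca
Cd36, chr5:17835897-17836146, minus strand: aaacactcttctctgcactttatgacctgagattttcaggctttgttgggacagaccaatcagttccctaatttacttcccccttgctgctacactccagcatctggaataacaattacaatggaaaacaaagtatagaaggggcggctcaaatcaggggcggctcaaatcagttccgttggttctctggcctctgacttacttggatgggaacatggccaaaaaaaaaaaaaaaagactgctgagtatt
The Olr1 window held 1 GAGGAA core, 71 to 76 bases before the start, and 1 TGANTCA site, 54 to 60 bases before it. The Marco window held 1 GAGGAA core and the Mrc1 window 3. The Stab1 window, not shown, held 1, and the Cd36 window held neither motif. Among all 32851 promoter windows of that length, 23.3% held GAGGAA and 6.75% held TGANTCA, so a single match in a window is a description of its letters only.

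Every array had 59305 spots for genes, of which 53.0% to 68.1% were well above background and 0 were saturated. The upper-quartile (75th percentile) signal ranged from 292 to 991, and levels below are log2 signals minus that value on each array. Arrays correlated with each other at r between 0.865 and 0.986 across genes. On 4 arrays, control 2, LFA 3, NTS 4 and NTL 2, under 58% of spots were well above background, and results are also given without them. The arrays lay on 3 slides, with NTS on slides 1 and 2 and SFA and NTL on slides 2 and 3. All 8 skeletal muscle markers were well above background on all 20 arrays, with Acta1 at 9.59 in control. A gene was called higher or lower where limma's test across 36920 probes gave a Benjamini-Hochberg adjusted p under 0.05 and the change was at least 2-fold.

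**Figure D1:**
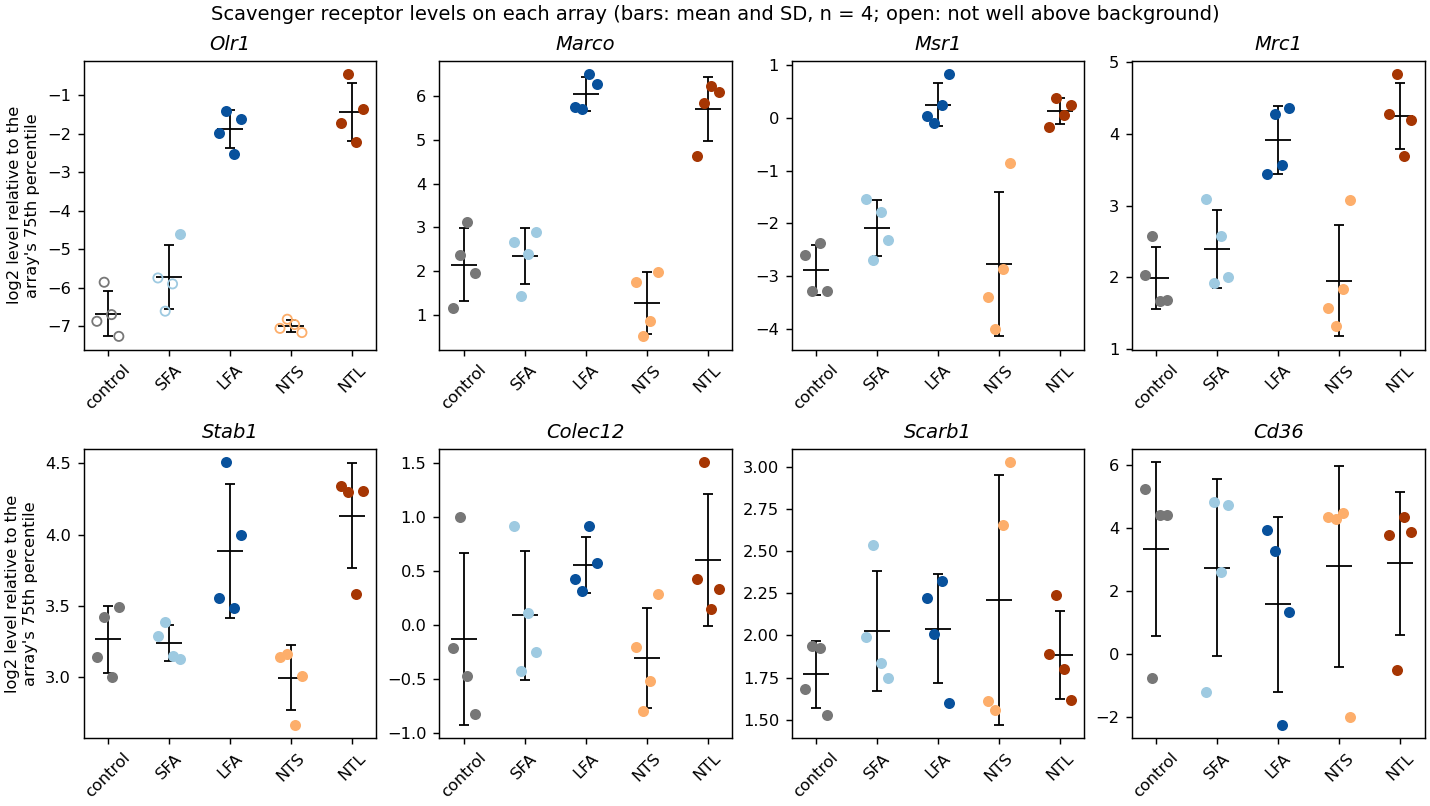
Each panel shows 1 receptor, with the 5 groups on the x axis and the log2 level relative to the array's 75th percentile on the y axis. Points are single arrays, bars give the mean and SD over 4 arrays, and open points were not well above background. The LFA and NTL points of Olr1, Marco, Msr1 and Mrc1 lie above every control point, and Cd36 has 1 array at or below -0.50 in each group.

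Olr1 encodes LOX-1, a class E receptor for oxidised low-density lipoprotein, and was read at chr6:129435316-129435375 (minus strand, NCBI build 37, as for all probe positions here). Its signal was not well above background on any control or NTS array and on 1 of 4 SFA arrays, and was so on all LFA and NTL arrays. Levels in control were -6.87, -5.86, -6.70 and -7.26, and in NTS -7.05, -6.82, -6.95 and -7.16. LFA levels were -1.97, -1.41, -2.53 and -1.63. Those of NTL were -1.74, -0.46, -2.22 and -1.36, and they overlapped LFA and no other group. Control gives only a bound, the lowest signal well above background on each array. Against it the LFA mean was higher by at least 9.53-fold, and the NTL mean by at least 12.9-fold. The fitted log2 changes on the measured signals were 4.78 ± 0.42 (SE, n = 4 per group) and 5.23 ± 0.42. With a normexp background correction and an offset, which lifts dim signals, they were 1.47 and 1.82. SFA levels were -5.74, -6.61, -5.90 and -4.60, and no fold is given for SFA because its mean was under that bound.

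Marco, a class A receptor of macrophages that binds bacteria and inert particles, was measured above background on all 20 arrays, at chr1:122371115-122371134 (minus strand). Its levels were 1.14, 2.36, 3.13 and 1.95 in control and 5.75, 5.71, 6.51 and 6.28 in LFA. The 4 NTL mice had 4.64, 5.86, 6.24 and 6.11, so both long fibre groups stood clear of control and overlapped each other. SFA, at 2.67, 1.42, 2.39 and 2.90, lay within the span of control. NTS reached 1.76, 0.50, 0.86 and 1.99, the lowest mean of the 5 groups, with 2 arrays under every control array. The log2 change was 3.91 ± 0.46 (SE) in LFA, 3.56 in NTL, 0.20 in SFA and -0.87 in NTS.

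Msr1, the class A receptor SR-A, was read by 2 probes on chromosome 8. The brighter probe (chr8:40689158-40689217, minus strand, NCBI build 37) gave -2.60, -3.27, -2.37 and -3.29 in control. It gave 0.03, -0.10, 0.24 and 0.83 in LFA, and -0.18, 0.39, 0.06 and 0.25 in NTL. By this probe neither long fibre group overlapped control, SFA or NTS. SFA gave -1.54, -2.70, -1.79 and -2.32, and NTS gave -3.39, -4.00, -2.86 and -0.85, with NTS 4 far above its group. The second probe (chr8:40709296-40709355) put that array at -3.67, inside its group, so the probes disagree there. On the second probe LFA 3, at -2.62, also lay below SFA 4 (-2.25) and NTS 3 (-2.29), so LFA overlapped both short fibre groups. Log2 changes were 3.13 ± 0.49 (SE) in LFA and 3.01 in NTL by the brighter probe, and 1.83 ± 0.43 and 2.21 by the second.

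Mrc1 encodes the macrophage mannose receptor, which clears mannose-bearing glycoproteins and collagen fragments (probe at chr2:14253273-14253332, plus strand). Control levels were 2.03, 2.58, 1.67 and 1.68. LFA levels were 3.44, 4.28, 3.56 and 4.36, and NTL levels 4.27, 4.83, 3.69 and 4.19. Every long fibre mouse therefore exceeded every control, SFA and NTS mouse, by the smallest margin of the 4 receptors so described. SFA levels ran from 1.92 to 3.08, and NTS levels were 1.58, 1.33, 1.84 and 3.08. The log2 change was 1.92 ± 0.39 (SE) in LFA and 2.25 in NTL, against 0.40 in SFA and -0.03 in NTS.

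Stab1, the class H receptor stabilin-1 (probe at chr14:31952288-31952347, minus strand), showed a smaller difference. The control mean was 3.27 ± 0.23 (SD, n = 4), with no array over 3.49. LFA levels were 3.56, 4.51, 3.49 and 4.00, and the lowest of them lay in the control range. NTL levels of 4.34, 4.30, 3.58 and 4.30 were all above control, with NTL 3 lowest. The log2 change of 0.87 ± 0.25 (SE) in NTL stayed under the 2-fold limit, and it was 1.05 without NTL 3 and 1.18 after quantile normalization, both past the threshold. SFA levels lay between 3.13 and 3.39, and NTS levels between 2.67 and 3.16.

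Colec12, a class A collectin of vascular endothelium, had a change of 0.69 ± 0.40 (SE) in LFA and 0.73 in NTL, and each group overlapped control. Its levels were -0.21, 1.01, -0.47 and -0.82 in control, 0.43, 0.32, 0.92 and 0.57 in LFA, and 0.43, 1.51, 0.15 and 0.34 in NTL. A single control array, control 2, exceeded all LFA arrays and all NTL arrays but NTL 2. SFA ranged from -0.42 to 0.92 and NTS from -0.79 to 0.29.

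Scarb1, the class B receptor that takes cholesterol from high-density lipoprotein, had the smallest changes of the members in LFA and NTL. Its brighter probe (chr5:125757483-125757542, minus strand, build 37) had group means between 1.77 in control and 2.21 in NTS, and changes from 0.12 to 0.44 with an SE of 0.31. Control ran from 1.53 to 1.94, and each fibre group overlapped it. The highest arrays were NTS 4 at 3.03, NTS 3 at 2.65 and SFA 2 at 2.53, and their liver marker scores (mean log2 level relative to control) were 8.01, 8.22 and 6.64. NTS 1 and NTS 2, at 1.61 and 1.56, had liver scores of -0.39 and -1.90. LFA 1 and LFA 3, with liver scores of 6.69 and 7.19, were at 2.22 and 2.33. Other arrays did not follow the liver score. NTL 3 and NTL 4, with scores of 4.26 and 3.85, were at 1.80 and 1.61, and control 1, with 4.12, was at 1.68. NTL 2, with a score of -0.43, was at 2.24. The part of liver RNA in the Scarb1 level was not tested. Its second probe (chr5:125761540-125761599) gave changes from -0.02 in SFA to 0.72 in NTS, with an SE of 0.56, and control 2 at -3.39 against -0.88 to -0.11 on the other control arrays.

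Cd36, the class B fatty acid translocase (probe at chr5:17288600-17288659, minus strand), varied more within groups than any difference between them. Control levels were 5.25, -0.79, 4.42 and 4.41. LFA levels were 3.95, 3.28, -2.25 and 1.32, and NTL levels 3.78, -0.50, 4.36 and 3.88. The remaining groups were alike in this, with SFA at -1.21, 4.83, 2.61 and 4.74 and NTS at 4.35, 4.30, 4.48 and -2.01. Each group thus had 1 array far below the others or, in LFA and SFA, a wide span. In 4 of 5 groups the array lowest in Cd36 was also the one with the fewest spots well above background. The log2 change was -1.75 ± 1.80 (SE) in LFA and -0.44 in NTL, and within slides 1, 2 and 3 the LFA difference was -4.87, 1.72 and -1.13. Without the 4 arrays that had under 58% of spots well above background, it was -1.84 ± 1.18 in LFA, -0.69 in NTL, -1.95 ± 1.10 in SFA and -0.32 in NTS. On the arrays kept, Cd36 was below every control array on each LFA and NTL array, as were 23.1% of all probes in LFA and 27.6% in NTL, and SFA and NTS overlapped control. What makes these arrays low was not tested.

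**Figure D2:**
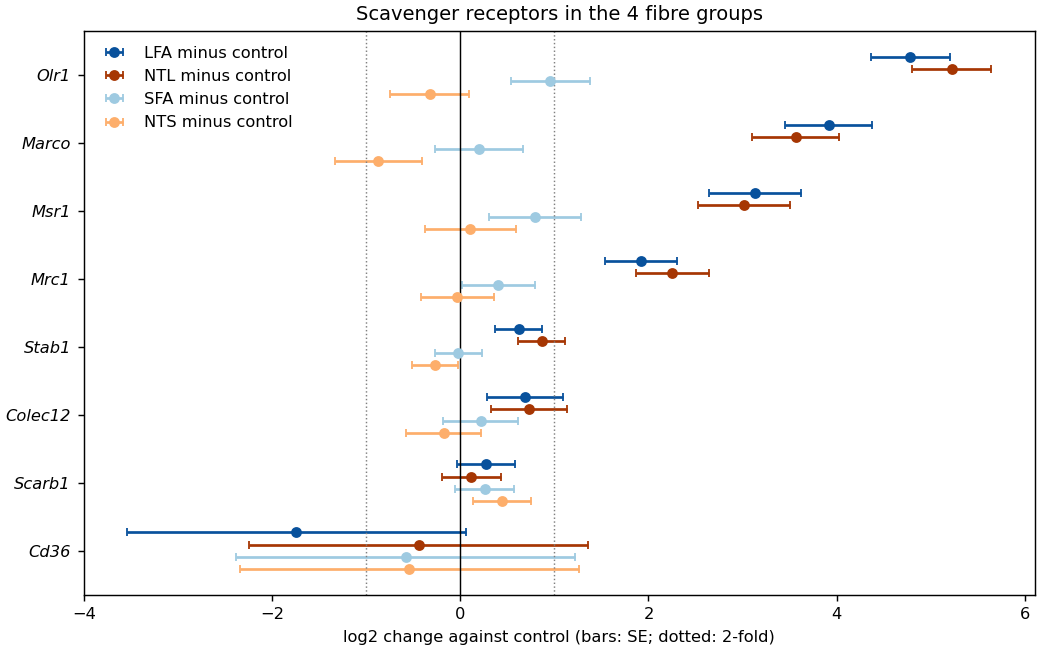
Log2 change against control on the x axis for the brightest probe of each receptor, with 1 point and SE bar for each of the 4 fibre groups, and dotted lines at 2-fold. Olr1, Marco, Msr1 and Mrc1 in LFA and NTL lie beyond 1.9, and the SFA and NTS points of the members other than Olr1 lie within 2-fold of control. Olr1 is drawn at its measured signals, which were not well above background in control or NTS.

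Set against all probes, 4 of the 8 members (Olr1, Marco, Msr1 and Mrc1) were past the threshold and higher in LFA, where 2.21% of all tested probes were called higher and 1.75% lower, and 0 members were called lower. The same count, 4, held for NTL, against 3.64% higher and 3.16% lower. Nothing is read from these shares, because the members were chosen with the contrasts in view. Arrays of LFA were all above control for 4 members and all below for 0, against 4.57% and 11.7% of probes. In NTL all 4 arrays were above control for 5 members, Stab1 included, and below for 0, against 6.37% and 13.8% of probes. The median change over the members was 1.30 in LFA and 1.56 in NTL, which stays the same with Olr1 at its bound, and that over all probes was -0.28 and -0.25. In SFA and NTS, 0 members were called, and limma called 0% of all probes in SFA and 0% in NTS. An unadjusted p under 0.05 was found for 851 and 1299 probes, each fewer than a share of 0.05 of the 36920 tested, which chance would give.

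Length was compared within each material, and for nanotubes the source differs along with length. Between NTL and NTS, 5 members were called higher, where 4.92% of all probes were called higher and 2.65% lower. The log2 differences were 4.44 for Marco, 2.91 for Msr1, 2.29 for Mrc1 and 1.14 for Stab1. Olr1, not well above background on any NTS array, was higher in NTL by at least 11.7-fold, with a fitted log2 difference of 5.55 on the measured signals and 1.72 after normexp. With slide as a block Stab1 no longer passed (1.10), and 4 members did. NTS and NTL arrays share slide 2 alone. Between LFA and SFA, 3 members were called higher, where 1.03% of probes were called higher and 0.133% lower. Those differences were 3.72 for Marco and 2.34 for Msr1. Olr1 was well above background on 1 of 4 SFA arrays, and with the others set at the lowest signal so measured it was at least 9.60-fold higher in LFA. Its fitted log2 difference was 3.83 on the measured signals and 1.38 after normexp. Mrc1 differed by 1.52 between LFA and SFA without overlap and missed the threshold. It passed after normexp (1.49), after quantile normalization (1.59), over probes well above background on all 20 arrays (1.52), without NTS 4 (1.52) and without the 4 arrays of few spots above background (1.63). Msr1 no longer passed between LFA and SFA with slide as a block (2.01), or without SFA 2 (2.13), SFA 4 (2.26), LFA 2 (2.45) or LFA 4 (2.14). The changes of all fibre groups against control share the 4 control arrays.

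Materials were compared at different doses, so these values are set side by side only. NTL minus LFA was 0.44 for Olr1, -0.35 for Marco, -0.12 for Msr1, 0.33 for Mrc1 and 0.24 for Stab1, with SEs from 0.25 to 0.49, and 0% of all probes were called between these groups by limma, with 569 at an unadjusted p under 0.05. The long minus short difference in nanotubes minus that in asbestos was 0.72 ± 0.66 (SE) for Marco, 0.77 ± 0.55 for Mrc1 and 0.49 ± 0.35 for Stab1. For Msr1 it was 0.57 ± 0.69 by the brighter probe and 0.07 ± 0.61 by the second. Scarb1 went the other way, at -0.34 ± 0.44 by its brighter probe. Limma called 0% of all probes for that difference, and 1278 had an unadjusted p under 0.05. Both 569 and 1278 are fewer than a share of 0.05 of the 36920 probes, which chance would give. No such value is given for Olr1, which was well above background on 0 of 4 NTS arrays and 1 of 4 SFA arrays.

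Where control and long fibre arrays share a slide, the 4 receptors were higher with long fibres in each comparison that could be made. For LFA on slides 1, 2 and 3, Olr1 was higher by at least 11.4-fold, 8.10-fold and 11.9-fold, against the same kind of bound. Mrc1 differed by 2.28, 1.13 and 2.61 on the log2 scale. Marco differed by 4.44, 4.00 and 2.58 and Msr1 by 3.82, 2.97 and 2.27. For NTL on slides 2 and 3, the log2 differences were 2.88 and 2.94 for Marco, 2.76 and 2.60 for Msr1 and 1.97 and 2.57 for Mrc1, and Olr1 was higher by at least 9.54-fold and 12.4-fold. Each rests on 1 to 3 arrays a group and has no test.

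Scavenger receptors outside the set were described through a list of 18 genes chosen by role, of which 17 were tested. This list, like those of ligands and of lipid handling below, was drawn up with earlier results of these data known. The adjusted p-values of all these lists are therefore a description. In LFA 4 of the 17 rose and 0 fell, where 2.21% of all probes were called higher and 1.75% lower. In NTL 6 rose and 0 fell, against 3.64% and 3.16%. Clec7a, the beta-glucan receptor dectin-1, rose by 3.09 ± 0.42 (SE, limma with Benjamini-Hochberg adjustment, adjusted p = 0.000657) in LFA and by 3.58 (adjusted p = 9.55e-05) in NTL. Cd68, the macrophage endosomal receptor macrosialin, rose by 1.95 ± 0.34 (adjusted p = 0.00446) and 2.39 (adjusted p = 0.000384). Cd44, the hyaluronan receptor, rose by 1.73 ± 0.32 (adjusted p = 0.00671) and 1.81 (adjusted p = 0.00227). None of these 3 had an LFA or NTL array in the control range. All 4 arrays lay above control for 4.57% of all probes in LFA and 6.37% in NTL. Timd4, a phosphatidylserine receptor of resident macrophages, rose by 1.35 ± 0.36 (adjusted p = 0.0408) and 1.24 (adjusted p = 0.0413), overlapped control, and lost its call in 16 of the 29 alternatives with a test for LFA and 17 for NTL. In NTL 2 more passed, Scara3 by 1.42 (adjusted p = 0.0199) and Cxcl16, a chemokine that also binds oxidised lipoprotein, by 1.28 (adjusted p = 0.0136). With slide as a block both calls were lost, and that of Scara3 in 4 more of the 29 alternatives. Their LFA changes were 1.06 (adjusted p = 0.0863) and 0.94 (adjusted p = 0.0742). The hemoglobin receptor Cd163 changed by -1.10 ± 0.79 in LFA (adjusted p = 0.404) and 0.03 in NTL (adjusted p = 0.989), and Stab2, the partner stabilin of sinusoids, by 0.72 ± 0.79 (adjusted p = 0.598) and -0.08 (adjusted p = 0.967). Cd163 was dim, well above background on 3 of 4 control, 2 of 4 LFA and 3 of 4 NTL arrays, so its changes are poorly measured. The list's median change was 0.19 in LFA and 0.41 in NTL.

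Ligands and partners of the members numbered 11, all tested, of which 4 rose in LFA and 5 in NTL, and 0 fell. Of all probes, 2.21% were called higher and 1.75% lower in LFA, and 3.64% and 3.16% in NTL. Thbs1, a matrix ligand of CD36, rose by 2.53 ± 0.55 (SE, limma, adjusted p = 0.0166) in LFA and 2.59 (adjusted p = 0.00797) in NTL. Tlr2 and Tlr6, which pair as a sensor of bacterial lipopeptides and cooperate with CD36, rose by 1.56 (adjusted p = 0.0268) and 1.36 (adjusted p = 0.0335) in LFA, and by 1.51 (adjusted p = 0.0189) and 1.81 (adjusted p = 0.00372) in NTL. Tlr2 overlapped control in both groups, and its call was lost in 7 of 29 alternatives for LFA and 5 for NTL, slide as a block among both. The LFA call of Tlr6 was lost in 11 of 29, and that of Thbs1 in 3 (without LFA 2, without LFA 4, and with only the groups compared). Lyn, a Src family kinase downstream of CD36, rose by 1.11 ± 0.22 in LFA (adjusted p = 0.00918) and by as much in NTL (adjusted p = 0.00449). The call of Lyn was lost in 2 of 29 alternatives for each group, normexp among both. Thbs2 rose in NTL by 1.65 ± 0.42 (adjusted p = 0.0216), a call lost in 7 of 29 alternatives. Apoe, a lipoprotein ligand, differed by 1.63 ± 0.70 in LFA with an adjusted p of 0.167, and Lpl, which frees fatty acids for uptake, by -1.10 ± 0.37 in NTL with an adjusted p of 0.0727. The median was 1.11 in both groups.

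Lipid handling after uptake was represented by 8 genes, of which 0 passed in LFA. The shares over all probes were 2.21% higher and 1.75% lower in LFA, and 3.64% and 3.16% in NTL. In NTL, Abcg1, a cholesterol exporter, rose by 1.48 ± 0.29 (SE, limma, adjusted p = 0.00446), and Pparg, the nuclear receptor of fat cells that also controls Cd36, fell by 1.19 ± 0.27 (adjusted p = 0.0123). Their LFA values were 1.02 (adjusted p = 0.0513) and -0.81 (adjusted p = 0.0873). Abca1, the partner exporter, was at 1.41 ± 0.46 in LFA (adjusted p = 0.0814) and 1.25 in NTL (adjusted p = 0.105). All arrays of each were above control, as for 4.57% of all probes in LFA and 6.37% in NTL. In SFA and NTS, limma called 0 of the 36 tested genes of the 3 lists, with 2 and 1 at an unadjusted p under 0.05. By length, 13 of the 36 passed between NTL and NTS, Tlr4 among them at 1.15 (adjusted p = 0.0102), and 3 between LFA and SFA, namely Cd68 at 1.60 (adjusted p = 0.0235), Clec7a at 2.12 (adjusted p = 0.0161) and Cd44 at 1.45 (adjusted p = 0.0311). Of all probes, 4.92% were called higher and 2.65% lower between NTL and NTS, and 1.03% and 0.133% between LFA and SFA. The 3 calls between LFA and SFA changed with single arrays: 0 were left without SFA 2, LFA 2 or LFA 4, 1 was left without SFA 1, SFA 3 or SFA 4, and 7 passed without the 4 arrays of few spots above background. Over all alternatives the log2 differences stayed between 1.82 and 2.39 for Clec7a, 1.38 and 1.77 for Cd68 and 1.16 and 1.72 for Cd44. The 8 calls in LFA against control became 5 without control 1, control 4 or LFA 2, and 4 without LFA 4.

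**Figure D3:**
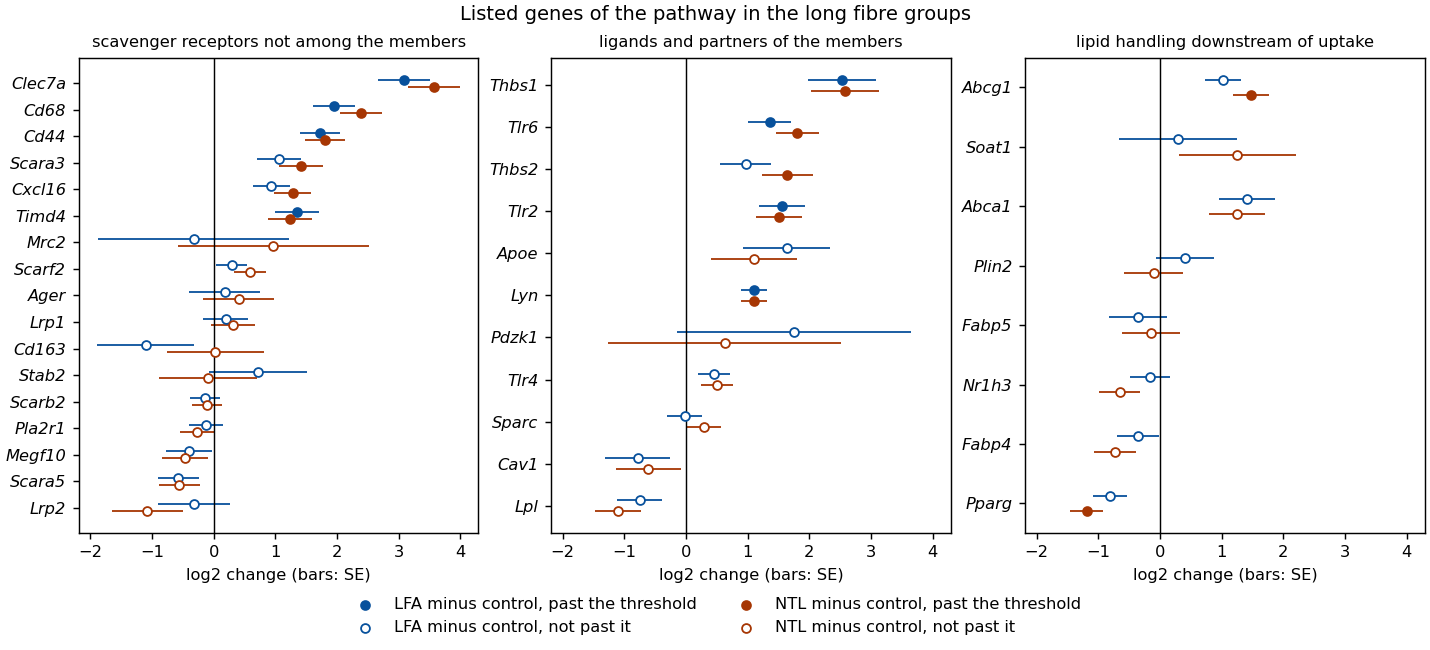
Log2 change against control on the x axis, with SE bars, for the tested genes of the 3 lists in LFA and NTL. Filled points passed the threshold. Clec7a, Cd68, Cd44, Timd4, Thbs1, Tlr2, Tlr6 and Lyn are past it in both groups, and Pparg is the 1 filled point below 0.

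Marker genes of cell types were read on the same arrays, because in whole tissue more cells of a type and more RNA per cell cannot be told apart. A list's score is the mean log2 level of its genes relative to the control mean. The macrophage score was 1.62 ± 0.49 (SD, n = 4) in LFA, with arrays from 1.11 to 2.06, and 1.96 ± 0.16 in NTL, against 0.23 in SFA, 0.05 in NTS and an SD of 0.15 in control. In both LFA and NTL, 7 of its 10 genes rose, Emr1 by 2.13 and 2.46, Csf1r by 1.33 and 1.68 and Ctss by 2.15 and 2.79 among them, and Itgam, at -0.80 and -0.60, did not pass. Of all probes, 2.21% in LFA and 3.64% in NTL were called higher. The macrophage list shares Cd68 with the receptor list. Olr1, Marco, Msr1 and Mrc1 were thus high in the groups where macrophage markers were high. The part of macrophage number in their levels was not tested.

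Fibroblast markers scored 0.81 ± 0.51 in LFA and 1.17 ± 0.33 in NTL, with 1 and 4 of 6 genes higher. Skeletal muscle scored -0.96 ± 0.28 and -1.41 ± 0.06, with 2 and 3 of 8 genes lower, and adipocyte markers scored -0.74 ± 0.49 and -1.19 ± 0.31, with 1 and 4 of 7 lower. Over all probes, 2.21% were called higher and 1.75% lower in LFA, and 3.64% and 3.16% in NTL. The part of fat and muscle in the level of Cd36 was not tested. For Colec12 and Stab1, the endothelial scores were -0.49 ± 0.23 in LFA and -0.23 ± 0.11 in NTL, with 0 of 9 genes called. The lymphatic and sinusoidal list, made of 5 genes, scored 0.48 ± 0.26 and 0.48 ± 0.15, with Lyve1 higher in LFA and Pdpn in NTL. Transcripts of liver, which borders the diaphragm, spread widely in all groups, from -1.97 to 4.12 in control and from -1.90 to 8.22 in NTS, and 0 of 6 were called. The mesothelial score was 0.32 ± 0.65 in LFA and -0.41 ± 0.15 in NTL, and the granulocyte score 0.61 ± 1.04 and -0.41 ± 0.67, with 0 called. Lung epithelium was read by 1 of 4 genes, at -0.62 in LFA and 0.27 in NTL.

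**Figure D4:**
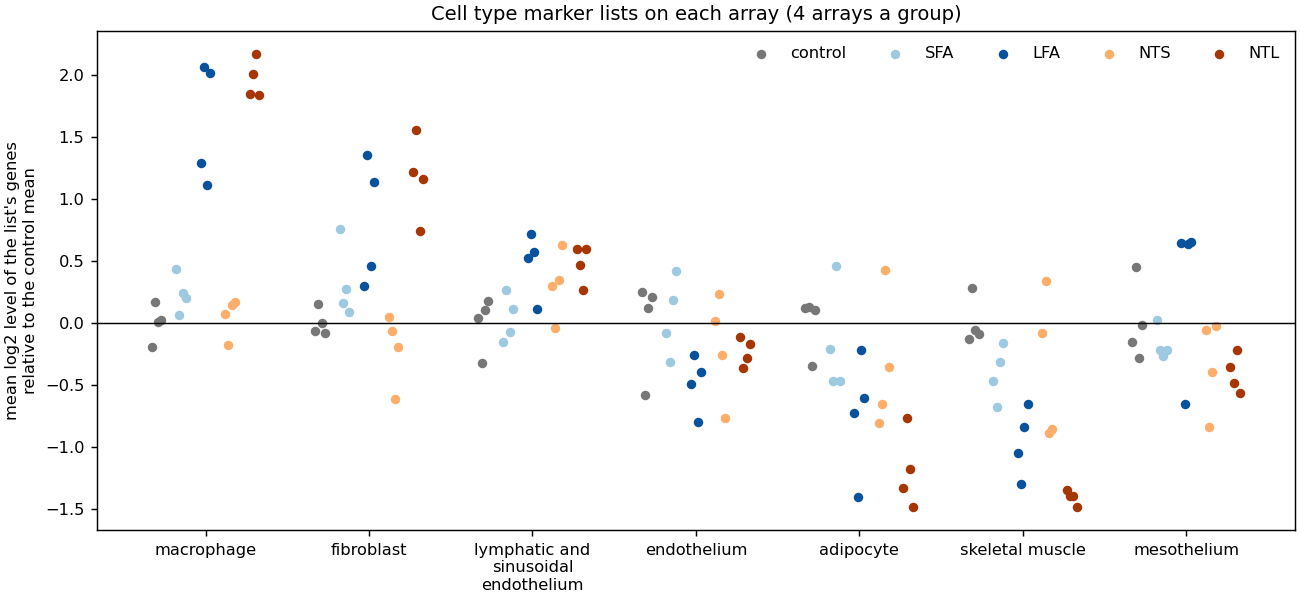
Score of 7 marker lists on each array, as the mean log2 level of the list's genes relative to the control mean, with groups in colour. The LFA and NTL points lie above every other group for macrophages, and below every control point for skeletal muscle.

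The genes most like each member over the 20 arrays were sought by Pearson correlation, over arrays that share 5 group levels. For Olr1 these were Slc2a6 (r = 0.98), Adora2b (0.97) and Fam162b (0.97), and for Marco Slc2a6 (0.97), Gpr171 (0.96) and Nfam1 (0.96). Slc2a6 encodes a glucose transporter of the GLUT family, and it headed both lists. Those of Msr1 were Ptger2 (0.97), a prostaglandin E2 receptor, Mpeg1 (0.95), the macrophage pore protein perforin-2, and Tnfrsf1b (0.95). Mrc1 was most like Emr1 (0.98), a macrophage surface marker, with Ppm1h (0.98) and Rnf180 (0.97) next. Cd36 was most like Hoxa5 (0.99), Abca5 (0.99) and Rwdd4a (0.99). Its spread is wide because 1 array in each group was at or below -0.50. In 4 of 5 groups that was the array with the fewest spots well above background. What these correlations of Cd36 reflect was not tested. Stab1 was closest to Cdr2l, Adamts2 and Nfasc (0.95 each), Colec12 to Mad2l1 (0.96), Zfp40 (0.95) and Rbm43 (0.95), and Scarb1 to Tmem97, Cyp2r1 (0.93 each) and Mpv17l (0.92).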

How the data were processed

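RNA of frozen diaphragm was labelled with Cy3 and hybridised, 1 mouse per array, to Agilent 60K mouse arrays. The deposited scanner files, made by the authors with Agilent Feature Extraction 10.7.3.1, hold background-corrected intensity per spot. A deposited table of the authors holds GeneSpring-normalized log2 values as 1 mean per group, so it gave values without a test. Spots flagged as outliers were dropped, and log2 intensity was taken minus each array's 75th percentile, then averaged per probe. Probes well above background on at least 4 of 20 arrays were tested with limma 3.58.1 in R 4.3.3 (1 mean per group, all 20 arrays, lmFit and eBayes), with Benjamini-Hochberg adjustment over all 36920 probes and a call at an adjusted p of 0.05 and 2-fold. The brightest probe stood for a gene. The pipeline was tested on simulated data. The number of arrays limits the precision. Figures were drawn with matplotlib 3.10.9 in Python 3.11.15.

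The members and the gene lists were chosen with earlier results of these data known. Named were all probes of the members, the listed genes called in LFA or NTL (with single uncalled ones beside them, chosen after their values were seen), marker scores, and the 3 gene symbols most correlated with each member. Probe positions follow the array's design on NCBI build 37. Alternatives covered background correction, quantile normalization, the background filter, averaging of probes, slide or replicate number as a block, only the groups compared, each array left out, and the methods' test with unequal variances over 5 groups. Leaving out the 4 arrays with under 58% of spots well above background was chosen after seeing the data.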

Additional observations from a re-analysis of the deposited data

Results flagged for a closer look

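On the arrays of 1 group, a single mouse can lie far from the other 3. Of 155 groups of 4 examined (receptors, named listed genes and marker scores), 9 (5.81%) had such an array, and chance flags about 1 in 20. The groups reuse the same 20 arrays and are not independent, so nothing is read from that share. Cd36 stood apart in 3 groups, at -0.79 in control 2 against 4.41 to 5.25 on the other control arrays, at -2.01 in NTS 4 against 4.30 to 4.48, and at -0.50 in NTL 2 against 3.78 to 4.36. Stab1 was at 3.58 in NTL 3 against 4.30 to 4.34, and Tlr6 at -0.95 in NTL 2 against -1.52 to -1.47. Among marker scores, endothelium was at -0.58 in control 2, where the other arrays had 0.12 to 0.25, and adipocyte at -0.35 in control 3, where they had 0.10 to 0.12. The mesothelium score was -0.66 in LFA 2 against 0.63 to 0.65, and the granulocyte score was -0.35 in NTS 4 against -1.88 to -1.68. Of these arrays, control 2, NTS 4 and NTL 2 are among the 4 with the fewest spots above background, and the cause was not tested.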

How the results depend on the processing

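The counts of receptors past the threshold stayed within 1.5 times their value in every alternative run, and with each array left out in turn they were 4 for LFA, 4 to 5 for NTL, 2 to 4 for LFA against SFA and 5 for NTL against NTS. Listed genes depended more on the processing. The 8 calls in LFA became 5 with slide as a block, 3 when only the groups compared entered the fit, and 4 to 10 with each array left out. The 13 calls in NTL became 8 with slide as a block and 9 to 14 with each array left out, and the 13 between NTL and NTS became 7 with slide as a block. The 3 calls between LFA and SFA became 0 with slide as a block, 0 with only the groups compared, 0 to 4 with each array left out, and 7 without the 4 arrays of few spots above background. The cause was not tested. Of 1474 values for single receptors under the alternatives, 0 reversed a call, 6 lost one and 7 gained one. Another 12, from within slides and without a test, were flagged as moved from the main value. Among them was Msr1 in LFA, at 3.82 on slide 1 and 2.27 on slide 3 against 3.13. Of 2340 for named listed genes, 0 reversed, 127 lost a call and 19 gained one. The methods' test over the 5 groups passed 10 of 36 listed genes after Benjamini-Hochberg adjustment and 16 unadjusted (limma 13). The authors' table gives group means, so it has no counts. The labels do not say whether replicate numbers pair the mice, and the data gave no sign of it. Deviations of same-numbered arrays correlated between -0.68 and 0.69 (median -0.09), and 4 of 20 arrays correlated best with their own number. With the replicate block, counts were 4 receptors in LFA, 4 in NTL, 3 between LFA and SFA and 5 between NTL and NTS, and 7, 13, 2 and 13 listed genes. Olr1 in control and NTS is limited by signal over background.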
